A study of Mus musculus with 7 samples.

Results

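The genes described here encode the enzymes and transporters that take glucose into muscle, store it as glycogen, burn it to lactate and move lactate across the fibre membrane. Of 38 symbols chosen for these functions, 37 were rows of the deposited table of 29869 genes. The absent symbol, Pkm, stands in the table under its older name Pkm2, whose values are given below but are left out of every count. RNA had been sequenced from the whole soleus, a postural calf muscle, of 7 mice aged 60 days. Sample titles put 4 libraries (animals 358, 361, 373 and 375) in a group labelled mdx, which carries the dystrophin mutation used as a model of Duchenne muscular dystrophy. They put 3 libraries (animals 359, 363 and 374) in a group labelled mdx/Runx1f/f, which carries the same mutation and a floxed Runx1 gene, encoding a transcription factor. The mdx mutation is thus shared by all 7 animals. No label used here names a Cre driver, its cell type or the floxed exons.

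The labels were checked first, because they disagree. The series' design text gives 3 mdx and 4 mdx/Runx1f/f muscles, the opposite of the titles, and the description field gives another animal number than the title for all but 1 sample. Runx1 itself stood at 274, 273, 235 and 201 normalised read counts in the mdx-labelled libraries, and at 919, 925 and 596 in those labelled mdx/Runx1f/f. A deleted exon need not lower a count over the whole gene, but the transcript was higher, not lower, in the group labelled with the floxed allele (log2 fold change 1.74, SE 0.18, edgeR adjusted p = 0.00795). The groups are therefore named by their labels, and every direction below rests on the titles. Libraries held between 16218306 and 20847902 counts. The fibre markers fit a skeletal muscle: the actin gene Acta1 was between 486965 and 773482 normalised counts in every library, and none of 23 markers of fast or slow fibres was at 0 in any library.

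As background, glucose enters muscle through the transporters Glut4 and Glut1 and is phosphorylated by hexokinase. It is then either stored, by glycogenin, glycogen synthase and branching enzyme, or split in glycolysis to pyruvate. Fast fibres, which contract in bursts, are rich in glycogen phosphorylase and glycolytic enzymes and export the lactate they make, while slow fibres take lactate up and oxidise it. Lactate dehydrogenase is built from A subunits, abundant in fast fibres, and B subunits, abundant in slow fibres and heart. The exporter Mct4, product of Slc16a3, is typical of fast fibres, and Mct1, product of Slc16a1, of oxidative ones.

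The promoters of the genes for both lactate transporters and both lactate dehydrogenase subunits are shown. They were picked because, of the chosen genes, Slc16a1 was called different and the other 3, its partners in lactate handling, were not. Each window runs from 250 bases before to 50 after the transcription start, in RefSeq's GRCm38.p6 annotation, printed 5′ to 3′. They lie at chr3:104638414-104638713, plus strand (Slc16a1), chr11:120948817-120949116, plus strand (Slc16a3), chr7:46845554-46845853, plus strand (the first listed start of Ldha) and chr6:142507908-142508207, minus strand (Ldhb). Capitals mark ACGTG on either strand (read as CACGT where it lies on the other one), the core of the hypoxia response element.
Slc16a1 promoter: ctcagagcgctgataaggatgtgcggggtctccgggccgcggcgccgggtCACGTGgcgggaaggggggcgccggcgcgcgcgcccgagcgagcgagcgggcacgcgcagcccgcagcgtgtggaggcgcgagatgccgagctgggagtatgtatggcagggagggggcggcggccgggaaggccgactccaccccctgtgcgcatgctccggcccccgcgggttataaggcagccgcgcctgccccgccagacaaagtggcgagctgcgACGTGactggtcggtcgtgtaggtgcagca
Slc16a3 promoter: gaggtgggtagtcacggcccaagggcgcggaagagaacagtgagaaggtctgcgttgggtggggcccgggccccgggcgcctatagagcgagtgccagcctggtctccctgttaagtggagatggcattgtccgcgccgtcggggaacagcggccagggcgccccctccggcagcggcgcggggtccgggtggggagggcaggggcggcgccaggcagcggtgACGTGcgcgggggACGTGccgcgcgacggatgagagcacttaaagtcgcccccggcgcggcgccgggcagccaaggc
Ldha promoter: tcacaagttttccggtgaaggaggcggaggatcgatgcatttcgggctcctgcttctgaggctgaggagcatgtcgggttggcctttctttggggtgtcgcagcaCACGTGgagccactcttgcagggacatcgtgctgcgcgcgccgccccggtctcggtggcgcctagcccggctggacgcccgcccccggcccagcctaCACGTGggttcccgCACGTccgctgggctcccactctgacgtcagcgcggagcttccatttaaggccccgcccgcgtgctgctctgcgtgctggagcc
Ldhb promoter: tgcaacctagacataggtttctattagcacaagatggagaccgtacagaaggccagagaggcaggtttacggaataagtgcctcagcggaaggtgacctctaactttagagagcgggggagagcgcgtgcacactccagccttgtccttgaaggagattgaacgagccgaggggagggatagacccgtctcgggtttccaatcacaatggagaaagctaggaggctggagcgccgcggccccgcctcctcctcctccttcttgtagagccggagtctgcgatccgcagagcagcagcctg

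The letters were counted over both strands. The Slc16a1 window held ACGTG at bases 51, 52 and 271 of the window, the first pair being both strands of 1 CACGTG, the E box that contains ACGTG. The Slc16a3 window held it at bases 224 and 237. The first Ldha window had 5 such matches, 4 of them in its 2 E boxes, and the Ldhb window had none. The window of the second listed Ldha start, chr7:46846832-46847131, plus strand, is not printed and had 0 as well. None of the 4 printed windows held TGTGGT or TGCGGT, the core letters bound by Runx proteins. The table had promoters for 35 of the 37 genes. Pgm1 and Pgm2 were left out here, since each name is also a synonym of the other gene. Over the 49 windows of the remaining 33 genes, 42.9% held ACGTG, against 19.6% of all 32851 windows of that length. Either Runx core was present in 10.2% of these windows, those of Aldoc, Hk1, Hk2, Pfkp and Slc2a1, against 22.4% of all. The mean GC content was 59.7% against 53.8%. These are matches of letters only and say nothing of binding.

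Of the genes chosen as members, edgeR called only the lactate transporter gene Slc16a1 different between the groups. Of 37 genes, 36 had enough counts to be tested. At an adjusted p below 0.05 (edgeR, quasi-likelihood, with Benjamini-Hochberg adjustment across 14033 genes), 1 gene, or 2.78% of the 36, was lower in the group labelled mdx/Runx1f/f and 0 were higher. Among all tested genes 6.95% were called, 5.1% higher and 1.85% lower. At an unadjusted p below 0.05 there were 3 higher and 7 lower members (27.8%, against 29.5% of all genes), limma-voom called 0 higher and 1 lower, and DESeq2 called 1 higher and 6 lower. That DESeq2 share, 19.4%, stood beside 17% of all genes. By the adjusted p of the authors' deposited table, 7 of 37 members (18.9%) were below 0.05, beside 19% of all genes with a value, and they were the same 7 symbols: Pfkp higher, and Slc2a4, Ldhb, Slc16a1, Gys1, Gyg and Gbe1 lower. The groups did not overlap in 9 of 36 members, 7 lower and 2 higher, or 25.0%. Over all genes this held for 27.4%, with 13.6% lower and 13.9% higher. The median log2 fold change was 0.15 for the members and -0.0016 for all tested genes.

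**Figure D1:**
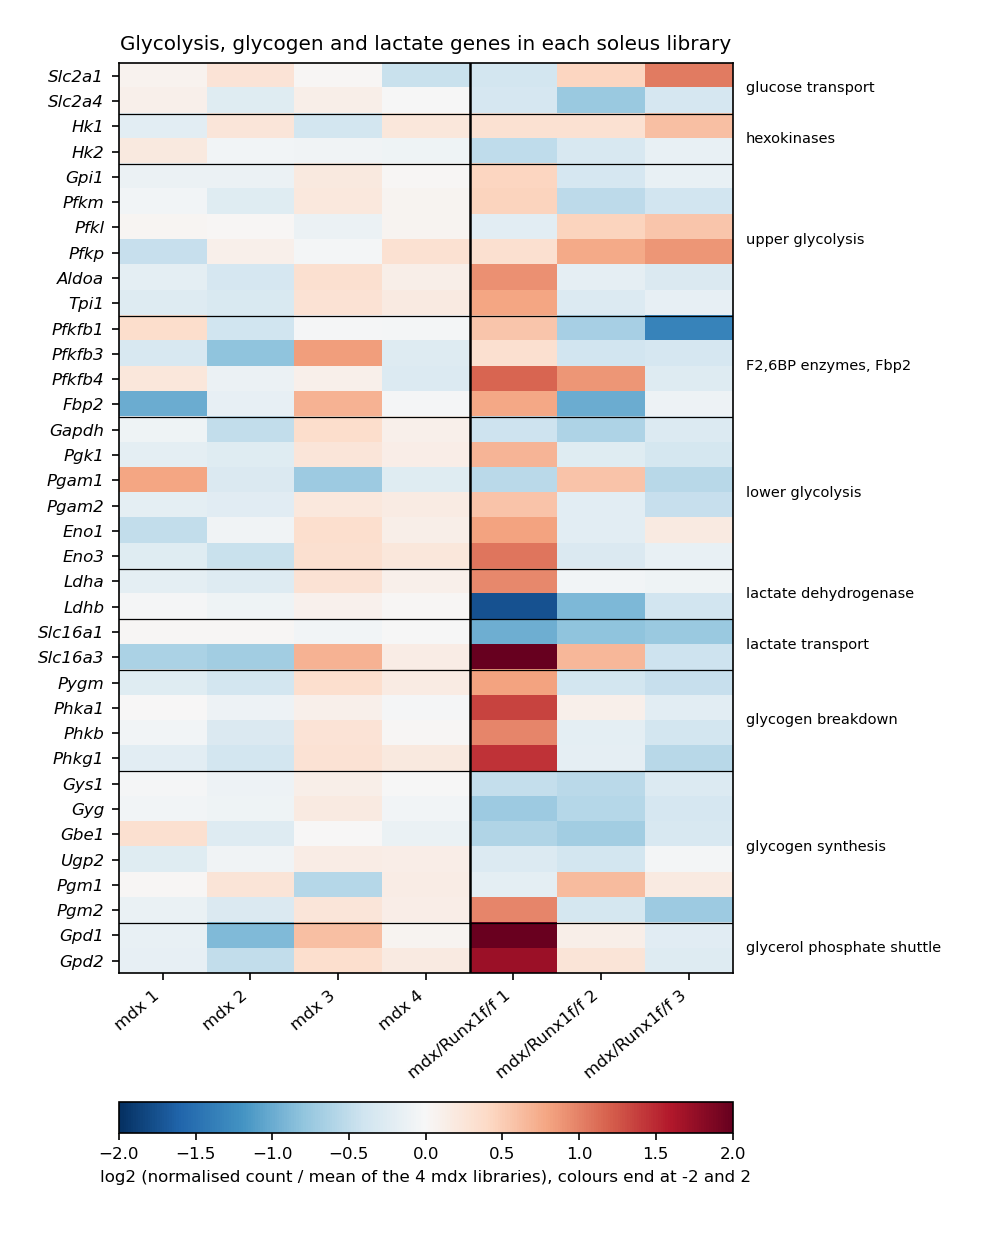
Each row is 1 of the 36 tested genes and each column 1 library, coloured by the log2 ratio of its normalised count to the mean of the 4 mdx-labelled libraries. The column of mdx/Runx1f/f replicate 1 is the highest for 20 of the 36 genes, while Slc16a1 and Ldhb are low in all 3 columns of that group.

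Lactate transport. Slc16a1 encodes Mct1, a proton-linked carrier of lactate and pyruvate. It stood at 3047, 3049, 2887 and 2971 normalised counts in the mdx-labelled libraries and at 1517, 1713 and 1783 in those labelled mdx/Runx1f/f. All 3 lay far below the lowest of the other group, and both groups were tight. In whole muscle, fewer cells of a type and less RNA per cell cannot be told apart. The means were 2989 ± 76.8 (SD, n = 4) and 1671 ± 138 (SD, n = 3), 1.79-fold lower (log2 fold change -0.83, SE 0.09, edgeR adjusted p = 0.00795). The call was kept in all 7 fits that left out 1 library, where the log2 fold change was between -0.89 and -0.78. It was -0.90 within animals 358 to 363 (edgeR adjusted p = 0.131) and -0.71 within animals 373 to 375 (edgeR adjusted p = 0.0122, on 2 libraries against 1, whose spread comes from the former group).

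Slc16a3, which encodes the exporter Mct4, behaved differently from library to library. Its counts were 476, 458, 1199 and 822 in the mdx-labelled libraries and 3643, 1170.3 and 556 in the others, so that only replicate 1 of the latter exceeded the whole mdx range. The means of 739 ± 349 (SD, n = 4) and 1789.9 ± 1634 (SD, n = 3) were not called different (log2 fold change 1.29, SE 0.61, edgeR adjusted p = 0.199). With mdx/Runx1f/f replicate 1 left out the log2 fold change was 0.22. Within animals 373 to 375, where the mdx/Runx1f/f-labelled group is a lone library, it was -0.85, the opposite sign to that over all libraries. The log2 ratio of Slc16a1 to Slc16a3 counts was between 1.27 and 2.73 in the mdx-labelled libraries. It was -1.26, 0.55 and 1.68 in mdx/Runx1f/f replicates 1 to 3, so the groups overlapped. Basigin, the membrane partner of both carriers, was chosen for mention after its values were seen: Bsg had 7019 ± 1119 (SD, n = 4) and 6301 ± 1095 normalised counts (SD, n = 3), a log2 difference of -0.15, SE 0.17 (edgeR adjusted p = 0.600).

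Lactate dehydrogenase. Ldhb, the gene of the B subunit, stood at 10479.8, 9998, 11358 and 10783 normalised counts in the mdx-labelled libraries. In those labelled mdx/Runx1f/f it stood at 3181, 5733 and 8192, all below the other group but spread over a wide range. The log2 fold change was -0.90 (SE 0.28) and the adjusted p 0.0833 by edgeR, which misses the threshold, against 0.0158 by DESeq2. Of the 7 edgeR fits that left out 1 library, 1 called Ldhb (without mdx/Runx1f/f replicate 3, adjusted p = 0.0406). In the others the edgeR adjusted p reached 0.213. Ldha, the gene of the A subunit, had 12151, 11551, 16936 and 14839.6 counts against 26854, 13417 and 13045. Only replicate 1 was outside the mdx range (log2 fold change 0.37, edgeR adjusted p = 0.416). The log2 ratio of Ldhb to Ldha lay between -0.58 and -0.21 in the mdx-labelled libraries and at -3.08, -1.23 and -0.67 in the others, and here the groups did not overlap. Among the other isozyme ratios taken, only that of Hk1 to Hk2, given below, did not overlap either. The groups overlapped for Slc2a1 to Slc2a4, Pfkl and Pfkp to Pfkm, Aldoc to Aldoa, Pgam1 to Pgam2, Eno1 to Eno3, Pfkfb3 to Pfkfb1 and, as given above, Slc16a1 to Slc16a3. In the annotated mouse transcripts 27.0% of the 50-base windows of Ldhb and 16.6% of those of Ldha also occur in another gene, so part of their reads can be ambiguous.

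**Figure D2:**
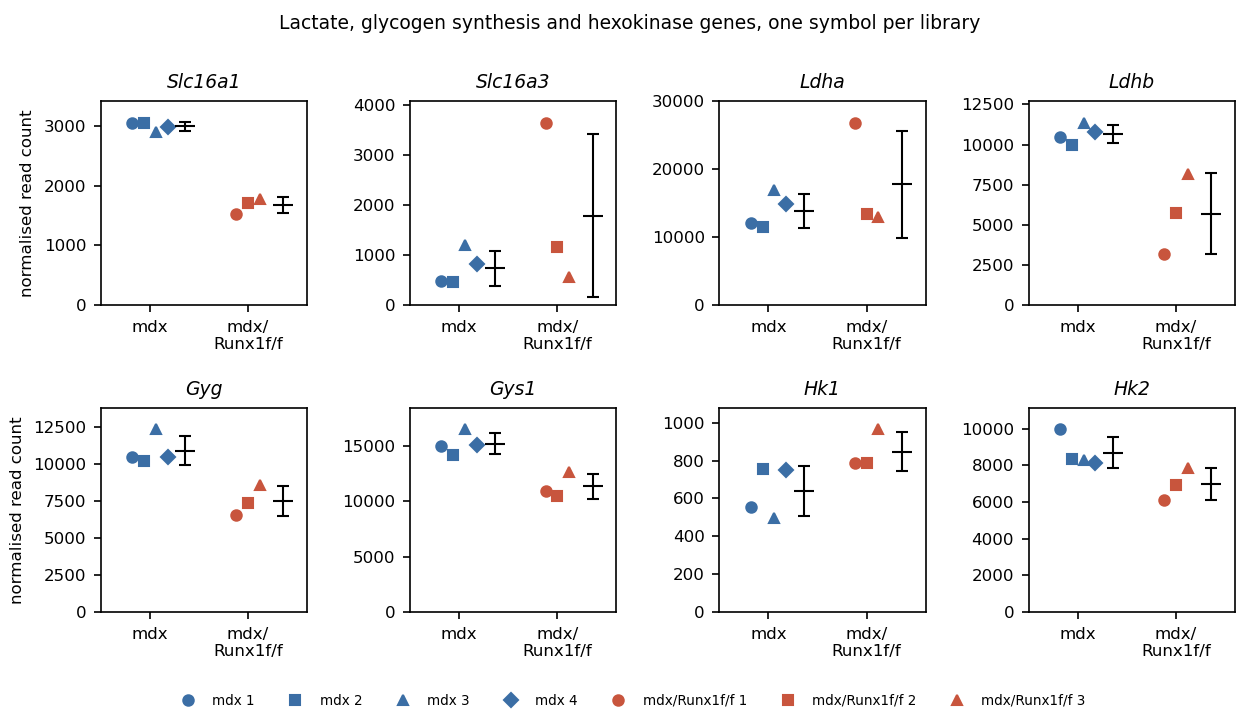
Normalised read counts of 8 genes, 1 symbol per library, with the mean and SD of each group as a bar beside the points. Slc16a1, Ldhb, Gyg, Gys1 and Hk2 show no overlap with all mdx-labelled libraries above the others, Hk1 shows none with them below, and the mdx/Runx1f/f points of Slc16a3 and Ldha are spread by replicate 1.

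Glycogen synthesis. The core enzymes that build glycogen were lower in each mdx/Runx1f/f-labelled library than in any labelled mdx, by small amounts that edgeR did not call. Gyg, the gene of glycogenin, which primes the glycogen particle, had 10483, 10194, 12315 and 10454 normalised counts against 6569, 7333 and 8593. Its fitted log2 difference was -0.53 ± 0.13 (SE), at an edgeR adjusted p = 0.0549. Gys1, muscle glycogen synthase, had 15214 ± 948 (SD, n = 4) against 11358 ± 1109 counts (SD, n = 3), a log2 difference of -0.41 with SE 0.13 (edgeR adjusted p = 0.0794). Gbe1, the branching enzyme gene, had 3619 ± 662 (SD, n = 4) against 2504 ± 352 (SD, n = 3), at -0.52 (SE 0.16, edgeR adjusted p = 0.0857). DESeq2 called all 3 lower, with adjusted p-values of 0.00193, 0.00218 and 0.0293. Gyg was also called by edgeR once the animal series was a covariate (adjusted p = 0.0320) and without mdx/Runx1f/f replicate 3 (adjusted p = 0.0471). The latter was the only 1 of the 7 fits with a library left out to call Gyg, and the edgeR adjusted p reached 0.163 in the others. Ugp2, which makes the UDP-glucose used by the synthase, ranged from 15936 to 20717 counts against 14569 to 18315, and the groups overlapped (log2 fold change -0.21, edgeR adjusted p = 0.395).

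The phosphoglucomutase rows are named Pgm1 and Pgm2, symbols that were exchanged between 2 genes in mouse nomenclature, and the table does not say which gene each row is. The row Pgm2 held 4973 to 7172 normalised counts in the mdx-labelled libraries and 12042, 4769 and 3675 in the others. The row Pgm1 held 98.3 to 173 against 126 to 225. Neither was called (log2 fold changes 0.18 and 0.25, edgeR adjusted p = 0.793 and 0.536).

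Glycogen breakdown. Pygm encodes muscle glycogen phosphorylase, and Phka1, Phkb and Phkg1 encode subunits of phosphorylase kinase, which switches it on. Pygm stood at 33717, 30932, 50409 and 45010.3 normalised counts in the mdx-labelled libraries and at 70267, 31087 and 29111 in the others. Phka1 had 3419, 3160.1, 3652 and 3333 against 8668, 3623 and 2928. The regulatory subunits share their profile, with 2324, 1990.5, 2913 and 2458 against 4741, 2112 and 1877 for Phkb. Phkg1, the catalytic subunit, had 1235, 1105, 1746 and 1634 against 3874, 1267 and 975. All 4 genes of this group were highest in mdx/Runx1f/f replicate 1 and none was called (log2 fold changes 0.13 to 0.59, edgeR adjusted p between 0.280 and 0.834). Without that library the log2 fold changes of Pygm, Phka1, Phkb and Phkg1 were -0.41, -0.05, -0.28 and -0.35.

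Glucose uptake and phosphorylation. Slc2a4 encodes Glut4, the insulin-regulated transporter of muscle and fat. Its counts were 10809, 8505, 10988 and 10011 in the mdx-labelled libraries and 8011, 6042 and 7969.6 in the others, without overlap (log2 fold change -0.45, SE 0.16, edgeR adjusted p = 0.106, DESeq2 adjusted p = 0.0306). Slc2a1, the gene of the ubiquitous transporter Glut1, had 300.1, 347, 290.4 and 210.3 counts against 221, 385 and 589.9, and the groups overlapped (log2 fold change 0.48, edgeR adjusted p = 0.324). The hexokinase genes had opposite signs. Hk2, the main hexokinase of muscle fibres, had 9949, 8348, 8276 and 8145 counts against 6123, 6935 and 7835. Hk1, expressed in most cell types, had 553, 755, 496 and 749 against 784, 787 and 964. Neither pair of groups overlapped and neither gene was called (log2 fold changes -0.31 and 0.41, edgeR adjusted p = 0.160 and 0.158). The log2 ratio of Hk1 to Hk2 was -4.17, -3.47, -4.06 and -3.44 in the mdx-labelled libraries. It was -2.96, -3.14 and -3.02 in the others. Since Hk1 was higher and Hk2 lower without overlap, this ratio had to separate the groups and adds nothing to the 2 genes.

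Upper glycolysis. Phosphofructokinase, the committed step, has muscle, liver and platelet forms encoded by Pfkm, Pfkl and Pfkp. Per kilobase of exon the mean level in the mdx-labelled libraries was 11678 normalised counts for Pfkm, 97.95 for Pfkl and 62.3 for Pfkp, so the muscle form made up nearly all of it. Pfkp had 194, 286, 261 and 331 counts in the mdx-labelled libraries and 336, 454 and 496 in the others, without overlap. Its log2 fold change was 0.68 (SE 0.20, edgeR adjusted p = 0.0729), and it was called higher by DESeq2 (adjusted p = 0.0239) and by edgeR with the animal series as covariate (adjusted p = 0.0374). It was called in 0 of the 7 edgeR fits that left out 1 library. Pfkl had 374, 371, 336 and 381 against 315, 498 and 538 (log2 fold change 0.31, edgeR adjusted p = 0.275), and without replicate 1 of the latter group it was 0.50 (edgeR adjusted p = 0.0483). No other of the 7 fits with a library left out called Pfkl, and its edgeR adjusted p reached 0.596 in them. Pfkm had 29536 to 40549 counts against 47665, 24458 and 26867, so replicate 1 was above and the other 2 below the mdx range (log2 fold change -0.08, edgeR adjusted p = 0.876). Aldoa, the aldolase of muscle, had 61304 to 97128 against 145759, 68906 and 63604, and Tpi1, triose phosphate isomerase, 9135 to 13703 against 19365, 9345 and 10068. Gpi1, glucose phosphate isomerase, had 6274 to 7830.2 against 9211, 5397 and 6178. The edgeR adjusted p-values of these 3 genes were between 0.635 and 0.939. Aldoc, the brain-type aldolase gene, had at most 14.1 normalised counts and was the member not tested.

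The fructose 2,6-bisphosphate enzymes, which set the strongest activator of phosphofructokinase, and Fbp2, the muscle fructose bisphosphatase, were among the more scattered members. Pfkfb4 had 466, 367, 425 and 329 counts in the mdx-labelled libraries and 890.2, 733 and 331 in the others, where replicate 3 fell inside the mdx range (log2 fold change 0.73, edgeR adjusted p = 0.155). Without that replicate it was 1.03 and was called (edgeR adjusted p = 0.0328). This was the only 1 of the 7 fits with a library left out to call Pfkfb4, and the edgeR adjusted p reached 0.380 in the others. Pfkfb1 had 389.5 to 655 against 748, 322 and 202, and its log2 fold change of -0.26 became -0.96 when mdx/Runx1f/f replicate 1 was left out (adjusted p = 0.705 and 0.0767, edgeR). Pfkfb3 ranged from 484 to 1509 against 645 to 1053, and Fbp2 from 93.0 to 299 against 92.5 to 316, with edgeR adjusted p-values of 0.902 and 0.928.

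Lower glycolysis. Per kilobase of exon, the mean over the mdx-labelled libraries was 25031 normalised counts for Pgam2, the muscle phosphoglycerate mutase, and 24525 for Eno3, the muscle enolase. Eno3 stood at 32421, 28063, 48129.5 and 45010.3 counts in these libraries and at 80259, 31552 and 34747 in the others (log2 fold change 0.36, edgeR adjusted p = 0.550). Pgam2 stood at 18002 to 24224 against 31310.1, 18082 and 15222 (log2 fold change 0.05, edgeR adjusted p = 0.929). The row Pkm2, the table's name for muscle pyruvate kinase, had 12523 to 19074 against 23200.3, 12829 and 14551 (log2 fold change 0.09, edgeR adjusted p = 0.837). In each of these 3 genes replicate 1 was the highest library of all 7.

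The rows for several ubiquitous enzymes were very low for their textbook abundance and cannot be read as levels. Gapdh, a glycolytic enzyme commonly used as a loading control, had 58.5 to 105 normalised counts in the mdx-labelled libraries and 53.9 to 68.3 in the others. Of the 50-base windows of its transcript 90.4% also occur in transcripts of another of 218 annotated mouse genes. The same share was 72.2% for Eno1 (102 to 181 against 124 to 251 counts), 68.0% for Pgk1 (388 to 545 against 362 to 738) and 41.5% for Pgam1 (15.5 to 44.4 against 17.4 to 37.9). It was 34.4% for Pkm, 19.3% for Gpi1, 13.5% for Aldoa and 7.51% for Tpi1. It was 0 for Slc16a1, Slc16a3, Gyg, Gys1, Gbe1, Hk1, Hk2, Pfkp, Eno3, Pgam2 and Slc2a4. How the authors counted reads with several matches is not given in the sources used here, and its part in these low counts was not tested. Gm5506, the annotated copy of Eno1 that RefSeq now names Eno1b, was listed at 0 in all 7 libraries. None of Gapdh, Eno1, Pgk1 and Pgam1 was called (edgeR adjusted p between 0.246 and 0.952).

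Glycerol phosphate shuttle. Gpd1, cytosolic, and Gpd2, mitochondrial, encode the enzymes that pass electrons from glycolytic NADH to the respiratory chain. Gpd1 stood at 1663, 998, 2782 and 1899 normalised counts in the mdx-labelled libraries and at 7195, 1986 and 1563 in the others. Gpd2 stood at 449, 359, 635 and 569.6 against 1651, 604 and 419. Replicate 1 was above the highest mdx library 2.59-fold for Gpd1 and 2.60-fold for Gpd2, while the other 2 lay within the mdx range for both. The log2 fold changes of 0.98 and 0.84 (SE 0.55 and 0.44) were not called (edgeR adjusted p = 0.272 and 0.245), and without replicate 1 they were -0.05 and 0.02.

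**Figure D3:**
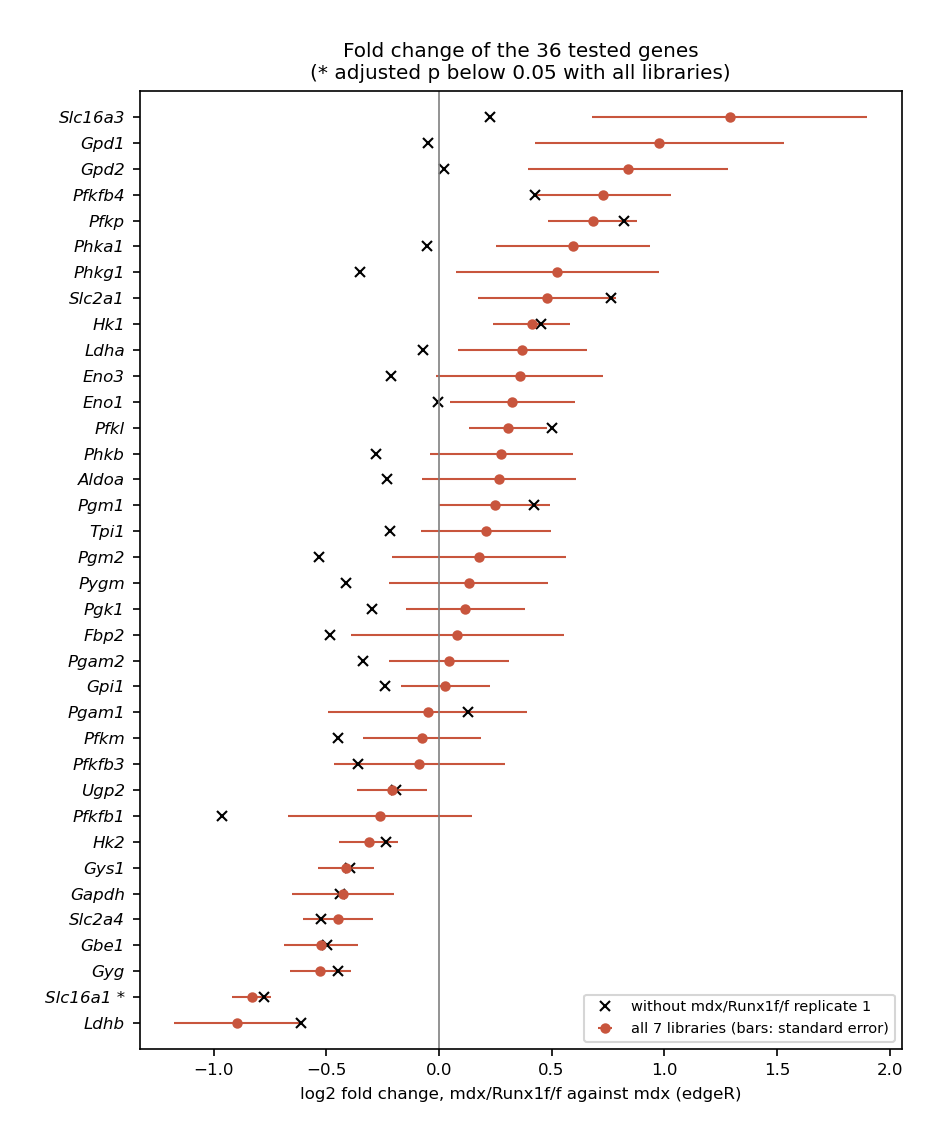
Log2 fold change of the 36 tested genes between the groups from edgeR, with its standard error (circles and bars, all 7 libraries) and from the fit without mdx/Runx1f/f replicate 1 (crosses). For 15 genes the circle is right of 0 and the cross left of it, while Slc16a1, Gyg, Gbe1 and Gys1 stay between -0.83 and -0.40 in both.

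The members stood higher in mdx/Runx1f/f replicate 1 than in the other 2 libraries of its group. Members took 3.08% of all counts in mdx/Runx1f/f replicate 1, against 1.76% and 1.61% in replicates 2 and 3 and 1.64% to 2.09% in the mdx-labelled libraries. Of the 36 tested genes, 22 (61.1%) were above the whole mdx range in replicate 1, 6 (16.7%) in replicate 2 and 4 (11.1%) in replicate 3. Over all 14033 tested genes these shares were 28.7%, 33.2% and 28.7%. Below that range were 9 (25%), 15 (41.7%) and 17 members (47.2%), against 31.3%, 32.7% and 29.7% of all genes. Replicate 1 was the highest of the 7 libraries for 55.6% of members and 12% of all genes. The median log2 ratio to the mdx mean was 0.50 in replicate 1 and -0.26 and -0.27 in the others. With all libraries 23 of 36 log2 fold changes were above 0 (63.9%, against 49.8% of all genes), and without replicate 1 there were 9 (25%, against 49.2%). The 15 members that went from above to below 0 made up 41.7%, against 4.62% of all genes. The members' median moved from 0.15 to -0.24. Animal numbers fall into 2 series: the median was 0.49 within animals 358 to 363, which include replicates 1 and 2, and -0.40 within animals 373 to 375, which include replicate 3. Over all tested genes these medians were 0.02 and -0.0074. Log2 fold changes were above 0 for 25 of 36 members in the first series and 5 of 36 in the second, which has a lone mdx/Runx1f/f-labelled library. Within animals 358 to 363 edgeR called 0 members and 0 genes, with 11 of 36 members and 2669 genes at an unadjusted p below 0.05. These 2 counts are given without shares and are not compared.

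Fibre type markers moved with this library. Myh4, the myosin gene of the fastest fibres, stood at 739, 2019, 8982 and 3278 normalised counts in the mdx-labelled libraries and at 246072, 53268 and 1293 in the others (log2 fold change 4.76, edgeR adjusted p = 0.0807). This was the highest log2 fold change of 13 fast fibre markers. Their median was 0.13 and their lowest -0.18, with 9 of 13 above 0. Over 13 fast fibre markers, the mean log2 CPM, a count scaled to library size, was 10.22 to 11.46 against 12.61, 11.26 and 10.13, highest in replicate 1, as were 20 of the 36 members. The summed counts of these markers were 634068 to 1081600 against 699460 to 1704320. Over 10 slow fibre markers, the mean was 10.92 to 11.59 against 9.17, 10.83 and 10.70, and the sums were 541995 to 912213 against 146977 to 506136. Of these 23 markers edgeR and limma-voom called 0. At an unadjusted p below 0.05 there were 2 fast and 7 slow ones, and DESeq2 called 1 and 4. In replicate 3 the fast marker mean was below that of every mdx-labelled library, while the summed counts of the same markers, 807364, lay inside the mdx range. The slow marker means and sums of all 3 mdx/Runx1f/f-labelled libraries were below every mdx-labelled one, as were their Slc16a1 counts. The part of fibre type in any of these results was not tested.

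Some markers of other cell types were called by edgeR. Of 11 myeloid markers 4 were called higher and 0 lower, with summed counts of 3213 to 13571 in the mdx-labelled libraries and 13435 to 36340 in the others. Of 9 markers of matrix-forming progenitors 7 were called higher, with sums of 44924 to 71641 against 138727 to 167764, and of 5 adipocyte markers 3, with sums of 5222 to 7433 against 6209 to 9769.8. The adipocyte sums thus overlapped. Of 6 Schwann cell markers 3 were called higher, with sums of 2345 to 3070 against 3960.4 to 4419. In the same order of lists, limma-voom called 4, 7, 1 and 3 markers, and DESeq2 called 6, 9, 3 and 5. None of these markers was at 0 in any library. Hk1, Pfkl, Pfkp and Slc2a1 are genes that such cells also express. The part of these cells in the members' differences was not tested. The 10 markers common to all fibres had a median log2 fold change of -0.32 with 0 called by edgeR and limma-voom, 3 called by DESeq2, 3 at an unadjusted edgeR p below 0.05, and sums of 1566080 to 1917280 against 1259470 to 1516990. By edgeR and limma-voom the endothelial, smooth muscle, erythroid and satellite cell lists had 0 of 6, 5, 3 and 6 tested markers called. By DESeq2 they had 0, 1, 0 and 1, and at an unadjusted edgeR p below 0.05 they had 0, 3, 0 and 3.

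**Figure D4:**
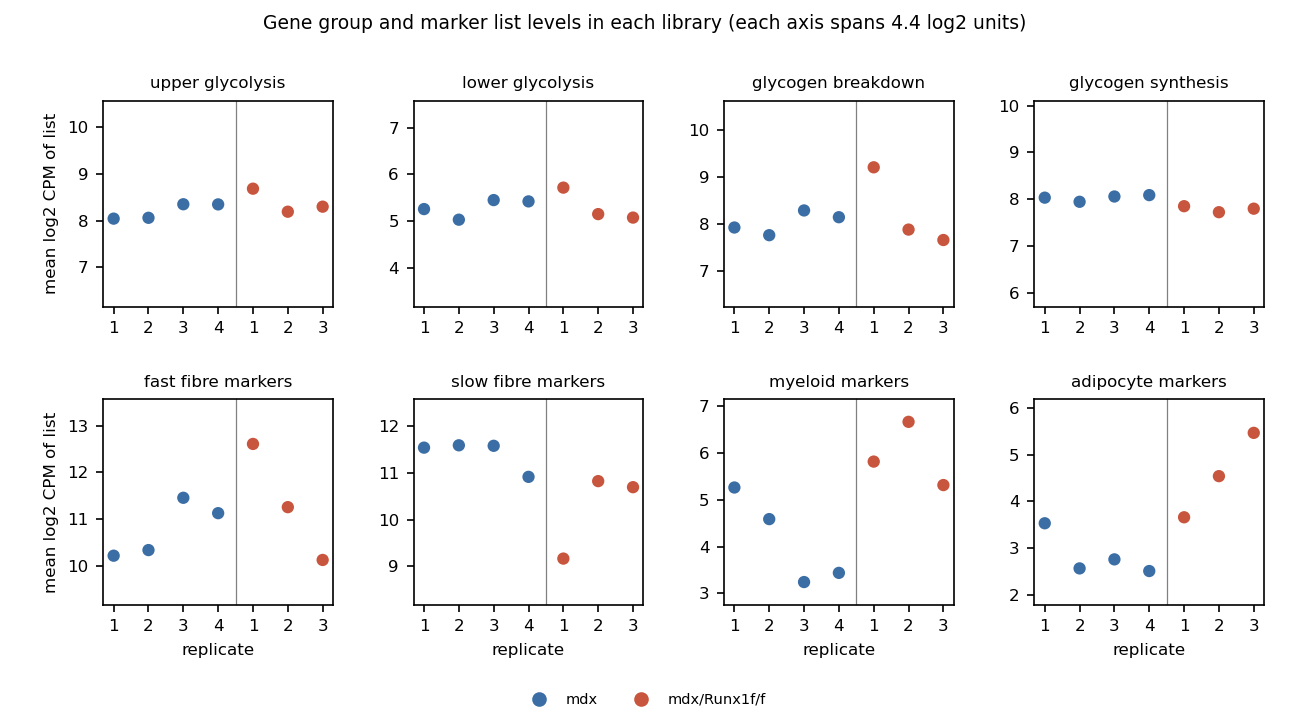
Mean log2 CPM of 4 groups of members (top) and 4 marker lists (bottom) in each library, the 4 labelled mdx left of the line and the 3 labelled mdx/Runx1f/f right of it. Glycogen breakdown and fast fibre markers peak in mdx/Runx1f/f replicate 1, where slow fibre markers are lowest, and glycogen synthesis shows no such peak.

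Around these members, 89 further genes of glucose, glycogen, pyruvate and lactate metabolism and its regulators were listed, of which 86 were in the table and 74 tested. Of the 74, edgeR called 2 higher and 3 lower, with a median log2 fold change of -0.02. Over all 14033 tested genes 6.95% were called, 5.1% higher and 1.85% lower. The 5 calls are given below as single genes, not as a result about the list. Pck1, the gluconeogenic and glyceroneogenic enzyme PEPCK, rose: its normalised counts were 50.9 ± 14.8 (SD, n = 4) and 203 ± 114 (SD, n = 3), or higher by 2.00 on the log2 scale, with an SE of 0.39 (edgeR adjusted p = 0.0281). It is also strongly expressed in adipocytes, whose marker Adipoq stood at 90.8 to 209 counts in the mdx-labelled libraries and 296, 542 and 998 in the others, in the same order of replicates as Pck1 at 106, 175 and 329. The part of adipocytes in this difference was not tested. Emb, the gene of embigin, which like basigin accompanies lactate carriers to the membrane, rose: the means were 112 ± 60.3 (SD, n = 4) and 409 ± 162 (SD, n = 3), or higher by 1.88 on the log2 scale, with an SE of 0.44 (edgeR adjusted p = 0.0441).

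The 3 lower genes act on pyruvate use and transcription. Pdk2, a kinase that shuts off pyruvate dehydrogenase, fell from 10026, 9343, 11926 and 10007 to 7355, 6131 and 6739.9 normalised counts (log2 fold change -0.61, SE 0.13, edgeR adjusted p = 0.0363). Six4, a homeobox factor of fast and glycolytic fibres, fell from 743 ± 92.1 (SD, n = 4) to 429 ± 85.4 (SD, n = 3), with -0.78 on the log2 scale (edgeR adjusted p = 0.0296). Mlxipl, the gene of the glucose-sensing factor ChREBP, fell from 94.6 ± 14.9 (SD, n = 4) to 51.8 ± 9.56 (SD, n = 3), with -0.87 on the log2 scale (edgeR adjusted p = 0.0452). These 5 calls were less stable than that of Slc16a1: of the 7 fits that left out 1 library, Pck1 was called in 3, Six4 in 2, Emb and Pdk2 in 1 each and Mlxipl in 0.

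Outside the threshold, genes with low p-values in each set of further genes were as follows. Pygl, the liver form of glycogen phosphorylase, stood at a log2 fold change of 1.39 by edgeR (adjusted p = 0.0510), with 62.7 ± 27.2 (SD, n = 4) against 163 ± 45.3 normalised counts (SD, n = 3). For Pygb, the brain form of the phosphorylase, the value was 0.59, and for the neuronal enolase gene Eno2 1.00 (edgeR adjusted p = 0.0830 and 0.110). Slc2a12, a glucose transporter gene, had -0.60 as its log2 fold change (edgeR adjusted p = 0.0593), and Tbc1d4, the gene of a Rab-GTPase activator that holds Glut4 inside the cell, -1.29 (edgeR adjusted p = 0.0602). Gpd1l, a relative of Gpd1, had -0.28 and Prkag1, a regulatory subunit of the energy sensor AMPK, -0.40 (edgeR adjusted p = 0.0596 and 0.0570). Stbd1, which ties glycogen to membranes, was 0.97 and Pdk3 was 0.65 (edgeR adjusted p = 0.108 and 0.0904).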

How the data were processed

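The authors deposited raw read counts per gene symbol for 7 libraries and, beside them, the counts divided by 1 size factor per library (a signal on the count scale), quoted here as normalised counts. Per the submitters' processing notes, TopHat2 2.0.10, HTSeq, DESeq2 1.6.3 and the mm9 genome were used. The annotation, strand setting and treatment of multiply matching reads are each not given in the sources used here. The deposited table also holds the authors' log2 fold changes and adjusted p-values, per the file headers.

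Columns were joined to samples through the animal number in the titles. Raw counts were fitted with edgeR 4.0.16 (R 4.3.3): filterByExpr, TMM, then the quasi-likelihood test on group alone, with Benjamini-Hochberg adjustment over 14033 genes, which held 99.9% of counts. The SE is the log2 fold change over the root of F. On data simulated for this comparison with 13873 genes tested, 52.5% of 2-fold and 89.6% of 4-fold changes were recovered. Of the calls, 5.48% were false. In that simulation 99 tested genes were changed 2-fold and 96 were changed 4-fold, and each gene was drawn independently of the others. Neither the recovery nor the share of false calls need hold for the real libraries. Libraries come from different animals by their titles. Every pair of libraries differed beyond sampling noise (lowest chi-square per degree of freedom 15.9).

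The members and gene lists were chosen with earlier results of these data known. All members are named, with the called and up to 3 lowest-p genes of each further list, except 1 that is not reported here. Levels per kilobase use the union of exons in GENCODE M21 (GRCm38), and shared windows its transcripts. No protein sequences were used. DESeq2 1.42.0, limma-voom (limma 3.58.1), other scalings, filters, covariates and left-out libraries were alternatives.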

Additional observations from a re-analysis of the deposited data

Results flagged for a closer look

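In the group of 4 libraries labelled mdx, 2 of the 37 genes had a library that stood apart from the other 3 by Dixon's criterion. Chance flags about 1 in 20 groups. Hk2 had 9949 normalised counts in mdx replicate 1, while the other 3 lay between 8145 and 8348, a gap of 0.887 of the range. Gyg had 12315 in mdx replicate 3, while the other 3 lay between 10194 and 10483, a gap of 0.864 of the range. The group of 3 libraries was too small for this criterion.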

How the results depend on the processing

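The number of calls depended on the tool and on single libraries, while the direction of Slc16a1 was negative in every fit listed here, with an adjusted p between 1.75e-16 (DESeq2) and 0.131 (animals 358 to 363 alone). DESeq2 called 1499 genes higher and 887 lower, with 1 and 6 among the members and 9 and 10 among the further pathway genes. The limma-voom fit called 736 genes higher and 288 lower, with 0 and 1 among the members and 4 and 4 among the further pathway genes. Scaling by library size alone, edgeR called 703 genes higher and 131 lower, with 0 and 1 among the members and 1 and 3 among the further pathway genes. With the animal series as covariate, edgeR called 1246 genes higher and 582 lower, with 1 and 2 among the members and 4 and 8 among the further pathway genes. Within animals 358 to 363, edgeR called 0 genes higher and 0 lower, with 0 and 0 among the members and 0 and 0 among the further pathway genes. At an unadjusted p below 0.05 there were 2669 genes, 11 of them among the 36 members. No share of all genes is set beside this count, so it is not read as a result about the members. Within animals 373 to 375, where the lone mdx/Runx1f/f library is assumed to vary like the mdx ones, it called 1361 genes higher and 440 lower, with 2 and 5 among the members and 10 and 4 among the further pathway genes. The members' median log2 fold change was 0.49 in the former and -0.40 in the latter. Size factors by RLE, no low count filter and a filter of 1 CPM in 3 libraries changed the call or direction of 0 members. Whether the title numbers pair the samples cannot be told from these values. Deviations of same-numbered libraries from their group means correlated at -0.0069, 0.24 and 0.28. Between libraries of unlike number the correlations ran from -0.46 (mdx 3 with mdx/Runx1f/f 2) to 0.51 (mdx 1 with mdx/Runx1f/f 2). The latter are both of animals 358 to 363, the former are of different series. With the number as a replicate block, edgeR called 240 genes higher and 80 lower, with 1 and 1 among the members and 0 and 1 among the further pathway genes. The member called higher there was Pfkp (0.80, edgeR adjusted p = 0.0467), and the call of Slc16a1 was kept.

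With each library left out in turn, all genes called higher numbered 173 to 641 and lower 17 to 209. For members these were 0 to 1 and 1 to 3, for further pathway genes 0 to 4 and 0 to 3, and the members' median log2 fold change was -0.24 to 0.30. Signs turned in at least 1 of these fits for uncalled genes, whose log2 fold changes ranged as follows: Gpi1 -0.24 to 0.18, Pfkm -0.45 to 0.10, Aldoa -0.23 to 0.47, Tpi1 -0.22 to 0.40, Pfkfb1 -0.96 to 0.065, Pfkfb3 -0.36 to 0.35, Fbp2 -0.48 to 0.42, Pgk1 -0.30 to 0.29, Pgam1 -0.54 to 0.34, Pgam2 -0.34 to 0.23, Eno1 -0.0035 to 0.54, Eno3 -0.21 to 0.60, Ldha -0.069 to 0.54, Pygm -0.41 to 0.34, Phka1 -0.051 to 0.86, Phkb -0.28 to 0.50, Phkg1 -0.35 to 0.85, Pgm2 -0.53 to 0.47, Gpd1 -0.050 to 1.33. Leaving out mdx/Runx1f/f replicate 1 turned 16 members. Within animals 358 to 363 the sign turned for Slc2a1 (-0.075), Pfkm (0.20), Pfkfb1 (0.045), Pfkfb3 (0.56). Within animals 373 to 375 it turned for Gpi1 (-0.26), Aldoa (-0.51), Tpi1 (-0.39), Pfkfb4 (-0.18), Fbp2 (-0.47), Pgk1 (-0.53), Pgam2 (-0.64), Eno1 (-0.035), Eno3 (-0.42), Ldha (-0.28), Slc16a3 (-0.85), Pygm (-0.71), Phka1 (-0.25), Phkb (-0.51), Phkg1 (-0.79), Pgm2 (-0.91), Gpd1 (-0.58), Gpd2 (-0.52). With library size alone it turned for Pfkm (0.023), Pfkfb3 (0.037), Pgam1 (0.065). With limma-voom it turned for Pfkfb3 (0.0092), Fbp2 (-0.031), Pgam2 (-0.015), Pgm2 (-0.0085). With the series as covariate it turned for Pfkfb3 (0.073). None of these members was called by edgeR on all libraries, and the cause of each change was not tested. With 4 and 3 libraries, 52.5% of 2-fold changes were recovered in simulation, a rate that need not hold here, and smaller changes can go uncalled.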
